A study of Mus musculus with 16 samples.

Results

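The cytoplasmic adaptors of the amyloid precursor protein APP are 8 genes in 4 families: the Mint or X11 proteins (Apba1, Apba2 and Apba3), the Fe65 proteins (Apbb1, Apbb2 and Apbb3), the JNK-interacting protein JIP1 (Mapk8ip1) and Disabled-1 (Dab1). They were followed through every probe set, a group of short probes for one transcript, that the array's annotation gave to one of these symbols alone. These were 18 of the 45101 probe sets in the table, for 8 of its 18194 named genes. A further probe set, shared by Apba3 and another gene, was left out. The samples were hippocampi of male mice aged 2 months, all of the strain written C56/BL6 in the labels, and their RNA was hybridised to 16 Affymetrix arrays, 4 per group. The groups were WT (genotype wild type), APPKO (APP-/-), APLP2KO (APLP2-/-) and N-dCKO (APP-/-; APLP2-/-). APLP2 is a close relative of APP. The series title calls the double knockout neuronal and conditional, but the sources used here do not give the Cre driver, the cells in which it acts or whether the WT mice carried conditional alleles. Samples of a group are numbered, with no statement that each came from its own animal, so every p-value refers to a spread between samples that may be technical.

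APP and its relatives APLP1 and APLP2 cross the membrane and end in a short cytoplasmic tail with a tyrosine-containing motif. Mint, Fe65, JIP1 and Dab1 each bind this motif through a phosphotyrosine-binding domain. Through the adaptors the tail meets the presynaptic release machinery and protein sorting (Mint), gene regulation and the actin cytoskeleton (Fe65), kinesin-driven axonal transport and JNK signalling (JIP1), and the reelin pathway that positions neurons (Dab1). Loss of APP and APLP2 removes binding sites for these proteins, and the arrays measured how much of their mRNA the hippocampus held with and without them.

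The targeted genes followed the labels. The App signal was 18500 ± 1098 in WT (SD, n = 4), 13.6% of that in APPKO and 11.8% in N-dCKO. The Aplp2 signal was 5984 ± 229 in WT, 19.4% of that in APLP2KO and 16.7% in N-dCKO. Aplp1, the third relative, had log2 differences from WT of 0.04, 0.04 and -0.04 in APPKO, APLP2KO and N-dCKO. Signals of all arrays had the same trimmed mean, and their medians ran from 79.7 to 101.6. All 6 markers of hippocampal excitatory neurons were above the filter on dim probe sets, and the mean log2 signal of 6 general neuronal markers lay between 13.26 and 13.48 on every array. Excitatory neuron markers averaged 11.41 ± 0.04 in WT and 11.52 ± 0.07 in N-dCKO, with both single knockouts between them. Endothelial markers averaged 8.98 ± 0.06 in WT and 8.99 ± 0.03 in N-dCKO. The mean signals of further marker lists differed between groups, and differences in list means were not tested. The mean log2 signal of microglial markers was 10.06 to 10.15 in WT, 9.80 to 10.01 in APPKO, 9.87 to 9.99 in APLP2KO and 9.72 to 9.87 in N-dCKO. That of oligodendrocyte markers averaged 12.85 ± 0.16 in WT, 12.43 ± 0.32 in APPKO, 12.82 ± 0.10 in APLP2KO and 12.42 ± 0.16 in N-dCKO. Astrocyte markers averaged 12.02 ± 0.03 in WT, 12.15 ± 0.03 in both single knockouts and 12.20 ± 0.05 in N-dCKO. Choroid plexus markers averaged 5.09, 5.75 and 5.77 on N-dCKO arrays 1, 2 and 4, but 8.43 on array 3, which lay within the 8.28 to 9.77 of the other groups. RNA quality, read as Gapdh signal at the 3' end over that at the 5' end, was 0.752 to 0.786 in WT and 0.797 to 0.834 in N-dCKO. No adaptor was called with the choroid plexus markers or the Gapdh ratio as a covariate. None was called without them either, so these fits cannot show the part of either in the adaptor values. Choroid plexus markers were lowest on N-dCKO arrays 1, 2 and 4. With them as a covariate, calls over the whole array in N-dCKO against WT fell from 150 to 17. That covariate also raised the standard error of this comparison, from 0.08 to 0.15 for Apba1 and from 0.05 to 0.10 for the brightest Dab1 probe set. A loss of precision alone can lower the number of calls. The fall therefore does not show how much of the calls goes with choroid plexus content. The part of the other shifts in the adaptor values was not tested. In such tissue RNA, fewer cells of a type and less RNA per cell cannot be told apart.

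All 8 adaptor genes had a probe set above the filter on dim probe sets, and none differed between any of the groups at an adjusted p below 0.05. Of the 18 probe sets, 16 passed the filter (a mean log2 signal at or above the array median) and entered the fit, at least 1 for each gene. The remaining 2 were dim probe sets of Apba1. With limma's moderated test and Benjamini-Hochberg adjustment over all 22519 probe sets tested, 0 of the 16 were called in APPKO against WT, where 0.0133% of all probe sets were called. The count was also 0 of 16 in APLP2KO against WT (0.147% of all) and in N-dCKO against WT (0.666% of all). At shares this low a set of 16 probe sets with no call does not stand apart from the array. At an unadjusted p below 0.05 the adaptor counts were 0, 2 and 2 of 16, and the shares over all probe sets were 4.90%, 7.10% and 11.2%. With the replicate number as a block over all 16 arrays, 6 probe sets of the array were called in APPKO against WT in place of 3. That block also covered APLP2KO and N-dCKO, whose numbers were not taken to pair samples. The count was 9 when only the 8 WT and APPKO arrays were fitted, with 0 adaptor probe sets among those called each time. Limma's unadjusted p in the block fit of 16 arrays was 0.0104 for Mapk8ip1 (1425679_a_at) and 0.0269 for Apba2. It was above 0.05 for every other adaptor probe set. The shares over all probe sets above are from the unpaired fit and none is given for the block fit, so these p-values are descriptions. The smallest adjusted p among the adaptors in the unpaired fit was 0.9998 in APPKO, 0.686 in APLP2KO and 0.305 in N-dCKO. The differences that the data still allow were bounded by the 95% confidence intervals, which reached at most 0.61 on the log2 scale in APPKO, 0.56 in APLP2KO and 0.61 in N-dCKO. Those widest limits came from the dimmer probe sets, and the median standard error was 0.083 for the adaptors against 0.113 over all probe sets.

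**Figure D1:**
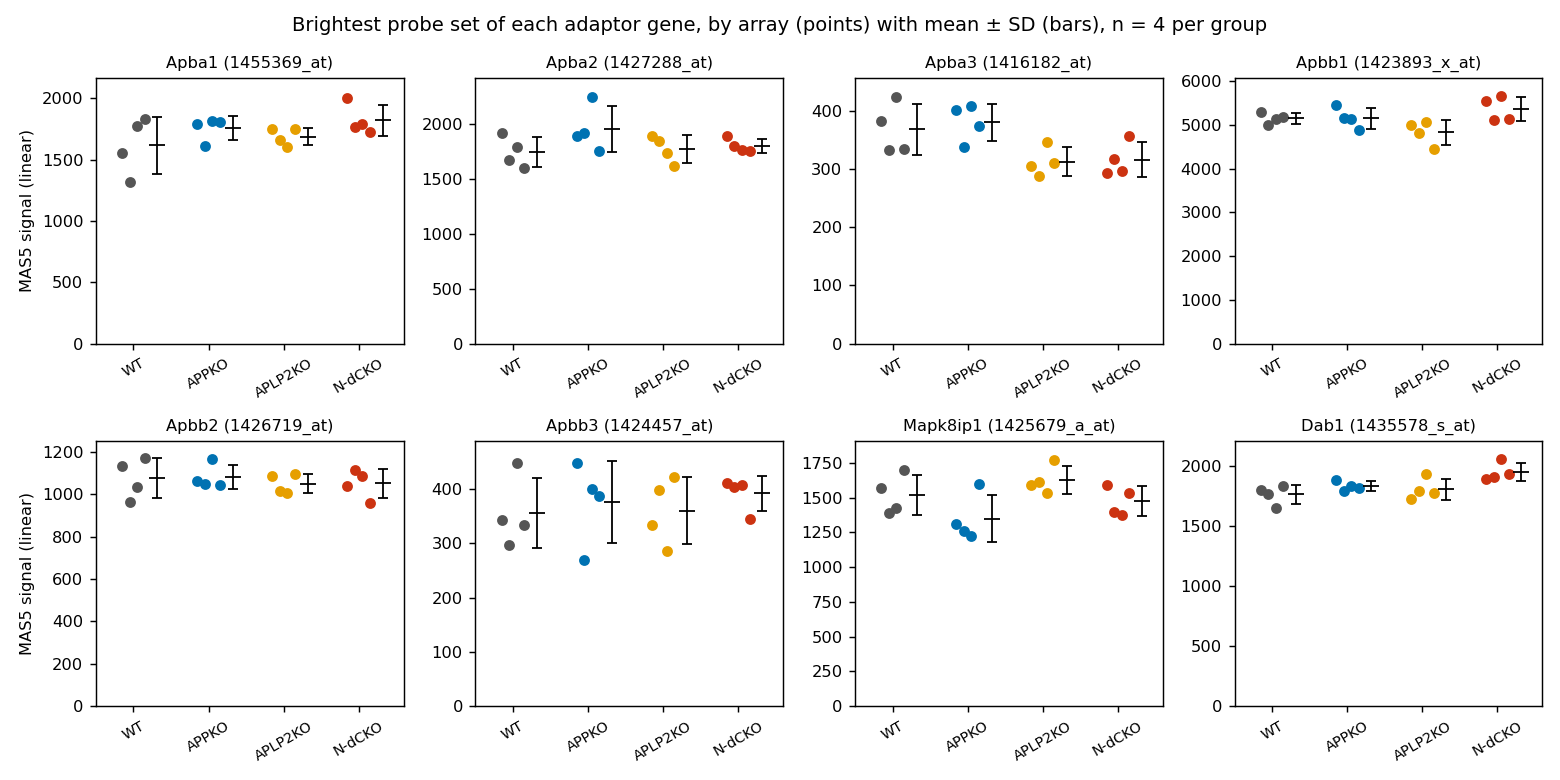
The brightest probe set of each of the 8 adaptor genes; the vertical axis is the MAS5 signal on a linear scale from 0, points are single arrays and bars give the mean ± SD of 4 arrays per group. The 4 groups of most genes share one range, the APLP2KO and N-dCKO means of Apba3 lie below the WT mean, and the N-dCKO points of Dab1 lie above the WT points.

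The Mint proteins couple APP to protein sorting and to the synapse; Apba1 and Apba2 are largely neuronal, whereas Apba3 is made in many tissues. Apba1 (1455369_at) gave signals of 1552, 1322, 1772 and 1834 on the 4 WT arrays, with a mean of 1620 ± 232.6. In APPKO the arrays read 1788, 1616, 1819 and 1811, in APLP2KO 1747, 1662, 1602 and 1747, and in N-dCKO 2007, 1766, 1788 and 1727. WT array 2 was the lowest of the 16, and the WT range covered all of APPKO and APLP2KO and 3 of the 4 N-dCKO arrays. The N-dCKO mean of 1822 ± 125.9 corresponded to a log2 difference from WT of 0.18 ± 0.08 (SE; 95% interval 0.00 to 0.35), with a limma adjusted p of 0.439 and an exact two-sided permutation p of 0.257. The log2 difference was 0.08 ± 0.07 without WT array 2, 0.09 ± 0.11 when arrays were centred on their medians and 0.02 ± 0.15 with a covariate for the choroid plexus markers.

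Apba2 (1427288_at) read 1920, 1673, 1789 and 1602 in WT. The APPKO arrays read 1890, 1921, 2246 and 1756, the APLP2KO arrays 1895, 1848, 1733 and 1614, and the N-dCKO arrays 1893, 1802, 1761 and 1750. Apart from the APPKO array at 2246, all arrays lay between 1602 and 1921. The log2 difference from WT was 0.16 ± 0.08 in APPKO (limma adjusted p = 0.9998), 0.02 ± 0.08 in APLP2KO and 0.05 ± 0.08 in N-dCKO. With the replicate number as a block the SE in APPKO was 0.07 and the limma adjusted p 0.765.

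Apba3 (1416182_at) had means below that of WT in both groups labelled APLP2-/-, and neither difference passed the test. Its signals were 383.0, 333.2, 423.6 and 334.7 in WT and 402.5, 337.6, 408.2 and 373.8 in APPKO. They were 306.4, 287.7, 347.4 and 310.0 in APLP2KO, and 294.0, 317.5, 296.4 and 357.9 in N-dCKO. In each of the groups labelled APLP2-/-, 3 of the 4 arrays were below all WT arrays and 1 was within the WT range. The log2 difference from WT was -0.23 ± 0.11 in APLP2KO (95% interval -0.45 to -0.01, limma adjusted p = 0.692) and -0.21 ± 0.11 in N-dCKO (-0.43 to 0.01, adjusted p = 0.472). These comparisons share the WT arrays. Against the APPKO arrays, again shared, the log2 differences were -0.27 ± 0.11 for APLP2KO (adjusted p = 0.544) and -0.26 ± 0.11 for N-dCKO (adjusted p = 0.573).

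Of the dim Apba1 probe sets, 1437940_at had group means of 43.8 to 49.1 with SDs of 6.31 to 13.2, and the groups overlapped. The other, 1459605_at, had a mean of 33.4 ± 17.3 in WT, 21.0 ± 7.81 in APPKO, 14.8 ± 9.56 in APLP2KO and 13.6 ± 2.77 in N-dCKO. Both lay below the filter of a signal of 87.9. Without the filter, 1459605_at had a log2 difference from WT of -0.80 ± 0.36 in APLP2KO and in N-dCKO, with limma adjusted p-values of 0.727 and 0.555, which the bright Apba1 probe set did not share.

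The Fe65 proteins link the APP tail to chromatin regulation and to cytoskeletal proteins, and Apbb1 is the neuronal member. Apbb1 was the brightest adaptor, with both of its probe sets above 95% of the array. The probe set 1423893_x_at, whose suffix marks probes that may also bind other transcripts, read 5300, 4984, 5137 and 5174 in WT and 5459, 5161, 5125 and 4872 in APPKO. It read 4999, 4801, 5068 and 4442 in APLP2KO, and 5540, 5119, 5656 and 5131 in N-dCKO. All 4 N-dCKO arrays lay above all 4 APLP2KO arrays, though the nearest of them, 5119 and 5068, were close together. The N-dCKO minus APLP2KO log2 difference was 0.15 ± 0.05 (exact permutation p = 0.0286, the smallest possible with 4 against 4; limma adjusted p = 0.515). The other Apbb1 probe set, 1423892_at, had a corresponding log2 difference of 0.04 ± 0.06, and its signals were 3516 ± 131.0 in WT, 3536 ± 121.2 in APPKO, 3497 ± 99.6 in APLP2KO and 3597 ± 270.3 in N-dCKO. Over the 16 arrays these probe sets had a correlation of 0.62, so the gap between the groups rested on 1 of the 2.

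Apbb2, the Fe65L1 protein, had similar means in the 4 genotypes. Its brightest probe set, 1426719_at, had means of 1076 ± 93.5 in WT, 1081 ± 57.7 in APPKO, 1051 ± 45.7 in APLP2KO and 1052 ± 68.8 in N-dCKO. The second, 1452342_at, read 929.1, 964.8, 964.7 and 924.9 in WT and had means of 952.7 ± 35.3, 983.5 ± 49.2 and 952.0 ± 29.0 in the knockout groups in the same order. Its spread within groups was lower than that of all but 1.3% of the probe sets tested. Its log2 difference from WT in N-dCKO was 0.01, with a 95% interval of -0.11 to 0.13. The dim probe set 1426720_at varied more, from 85.2 ± 8.65 in N-dCKO to 106.7 ± 22.1 in APLP2KO, and its groups overlapped.

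Apbb3, the third Fe65 protein, was measured by 1 probe set, 1424457_at. The WT arrays read 342.6, 297.5, 448.6 and 334.4, the APPKO arrays 447.5, 269.3, 399.9 and 387.0, the APLP2KO arrays 333.8, 398.0, 286.6 and 422.6, and the N-dCKO arrays 412.1, 403.7, 407.6 and 344.8. The arrays of 1 group differed as much as those of different groups. The N-dCKO log2 difference from WT was 0.15 ± 0.15, and its 95% interval ran from -0.17 to 0.47.

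JIP1 is a scaffold for the JNK kinase cascade that also ties APP to kinesin. The Mapk8ip1 probe set 1425679_a_at read 1566, 1389, 1424 and 1698 in WT and 1313, 1262, 1222 and 1598 in APPKO. It read 1590, 1614, 1536 and 1769 in APLP2KO, and 1593, 1399, 1377 and 1534 in N-dCKO. In APPKO, 3 arrays were below every array of the other groups and 1 lay within their range. The APLP2KO minus APPKO log2 difference was 0.28 ± 0.09 (95% interval 0.10 to 0.45), the smallest unadjusted p of any adaptor in any comparison at 0.00443, with a limma adjusted p of 0.390 and an exact permutation p of 0.0857. The APPKO log2 difference from WT was -0.17 ± 0.09 and that of N-dCKO, which is also labelled APP-/-, was -0.04 ± 0.09. Same-numbered WT and APPKO arrays deviated together, and the APPKO array was the lower one in 4 of 4 such pairs. With the replicate number as a block the SE of that difference was 0.06 and the limma adjusted p 0.661, or 0.474 when only the WT and APPKO arrays were fitted. The second Mapk8ip1 probe set, 1440619_at, had means of 197.9 ± 50.02, 230.0 ± 40.5, 221.3 ± 32.8 and 231.6 ± 58.6 in WT, APPKO, APLP2KO and N-dCKO. It had an APLP2KO minus APPKO log2 difference of -0.05 ± 0.18 and a correlation with the first of -0.47 over the 16 arrays, and it read higher in APPKO than in WT in 4 of 4 same-numbered pairs (log2 difference 0.22 ± 0.18).

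Dab1 is phosphorylated when reelin binds its receptors and passes that signal on inside neurons. It had 5 probe sets. The brightest, 1435578_s_at, read 1801, 1765, 1648 and 1833 in WT and 1884, 1790, 1830 and 1814 in APPKO. It read 1724, 1792, 1929 and 1769 in APLP2KO, and 1891, 1908, 2059 and 1929 in N-dCKO. Every N-dCKO array was above every WT and every APPKO array, and APLP2KO overlapped with N-dCKO. The N-dCKO mean of 1947 ± 76.5 was 110.5% of the WT mean of 1762 ± 80.8, a log2 difference of 0.14 ± 0.05 (95% interval 0.03 to 0.26). The exact permutation p was 0.0286 and the limma adjusted p was 0.305. Without N-dCKO array 3 the log2 difference was 0.12 ± 0.06. That difference was 0.06 ± 0.09 when arrays were centred on their medians and 0.25 ± 0.10 with a covariate for the choroid plexus markers. Of all probe sets tested, 6.77% had N-dCKO and WT arrays that did not overlap, so 1 of 16 adaptor probe sets was near that share.

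The other 4 Dab1 probe sets had N-dCKO log2 differences from WT of 0.04 to 0.14, all positive, with limma adjusted p-values of 0.536 to 0.919 and overlapping arrays. Of these, 1427308_at had a mean of 570.9 ± 32.1 in WT, 618.5 ± 50.3 in APPKO, 574.0 ± 31.8 in APLP2KO and 631.3 ± 45.1 in N-dCKO. The probe set 1427307_a_at was highest in APLP2KO instead, at 1338 ± 147.8 against 1177 ± 54.5 in WT. That log2 difference was 0.18 ± 0.08 (adjusted p = 0.686), and APLP2KO arrays of 1174 to 1528 overlapped with WT arrays of 1131 to 1251. The means of 1435577_at ran from 1152 to 1268 and those of 1421100_a_at from 413.9 to 448.1 (also highest in APLP2KO), each with groups that overlapped. Correlations between Dab1 probe sets over the 16 arrays ran from -0.28 to 0.59, so the 5 did not follow each other closely.

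**Figure D2:**
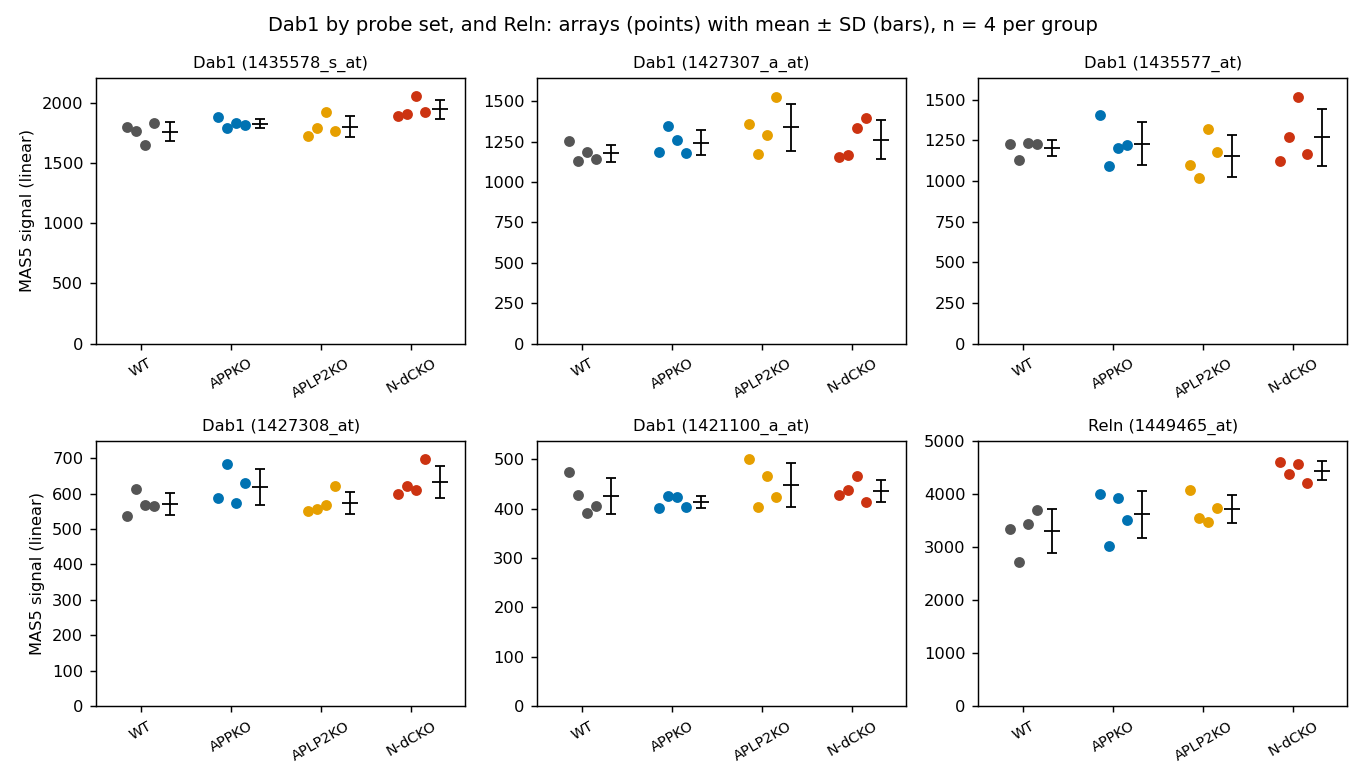
Signals of the 5 Dab1 probe sets and of Reln, with the MAS5 signal on a linear axis from 0, single arrays as points and mean ± SD of 4 arrays as bars. N-dCKO arrays lie above all WT arrays for 1435578_s_at (1891 to 2059 against 1648 to 1833) and above all 12 other arrays for Reln.

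Seen together, the adaptor differences were small. Against WT the 16 log2 differences ran from -0.17 to 0.22 in APPKO, from -0.23 to 0.18 in APLP2KO and from -0.21 to 0.22 in N-dCKO, with medians of 0.04, 0.03 and 0.05. The medians over all 22519 probe sets were 0.00, 0.00 and 0.01. Positive values numbered 14, 11 and 12 of 16, but after each array was centred on its median these became 4, 4 and 6 of 16, while the medians over all probe sets were then -0.09, -0.08 and -0.08. The share of positive values over all probe sets went from 50.3%, 50.4% and 52.0% to 21.1%, 27.1% and 28.5% with the same centring, so the sign counts moved with the array. The adaptor medians after centring were -0.05, -0.05 and -0.04, above the medians over all probe sets in each comparison, as they were before centring. Arrays that did not overlap with WT were found for 0 of 16 probe sets in APPKO (2.59% of all), 0 in APLP2KO (4.14% of all) and 1, the Dab1 probe set above, in N-dCKO.

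**Figure D3:**
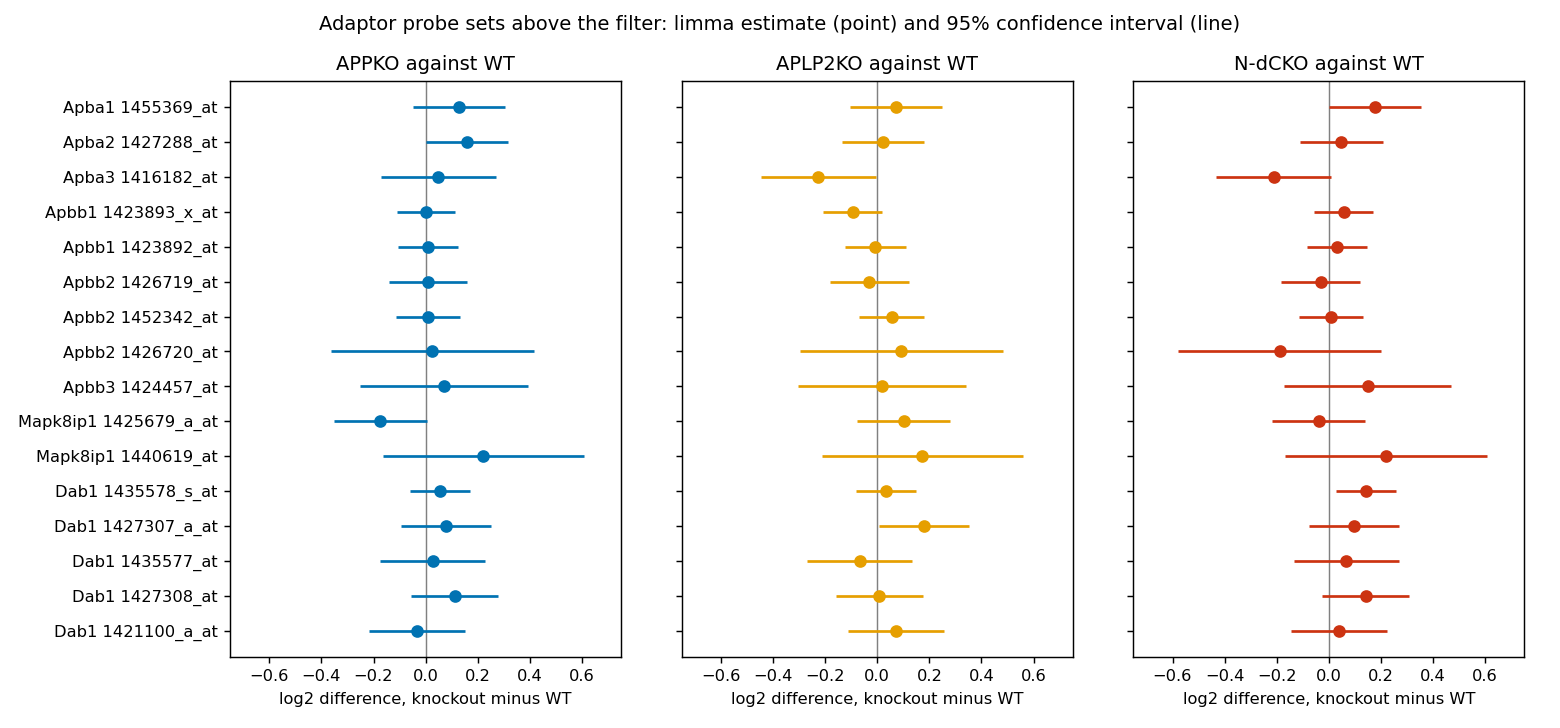
Log2 difference from WT (horizontal axis) for the 16 adaptor probe sets above the filter, in 3 panels for the knockout groups; points are limma estimates and lines 95% confidence intervals. Estimates lie between -0.23 and 0.22, and the intervals of the dim probe sets of Apbb2, Apbb3 and Mapk8ip1 are the widest.

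The knockout groups were also compared with each other. None of the 16 probe sets was called in N-dCKO against APPKO (0.262% of all probe sets called), in N-dCKO against APLP2KO (0.0266% called) or in APLP2KO against APPKO (0.155% called). The smallest adjusted p was 0.573, 0.515 and 0.390 in these comparisons, and unadjusted p-values below 0.05 numbered 1, 1 and 2 of 16, with shares over all probe sets of 7.48%, 7.50% and 7.30%. Arrays that did not overlap were seen for 1 probe set of Dab1 in N-dCKO against APPKO (3.81% of all), for 1 of Apbb1 in N-dCKO against APLP2KO (4.81% of all) and for 0 in APLP2KO against APPKO (3.90% of all). The interaction compared the N-dCKO difference from WT with the sum of the APPKO and APLP2KO differences. It called 0 adaptor probe sets and 0% of all probe sets at an adjusted p below 0.05. At an unadjusted p below 0.05 it held 0 of the 16 and 933 of all 22519 probe sets. As the cells that lost the genes in N-dCKO are not given, this contrast cannot separate losing both genes from a different kind of loss. The moderated F test for any difference between the 4 groups called 0 of 16, with 0.435% of all called, and its smallest adaptor value was that of Apba3 (adjusted p = 0.485).

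Among themselves the adaptors did not form one pattern. Over the 16 arrays, pairwise correlations of the brightest probe sets ran from -0.61 for Apba2 with Mapk8ip1 to 0.62 for Apba1 with Apbb3. Apbb1 and Dab1 had a correlation of 0.52. These are descriptions over arrays that share group means and scaling. Most adaptor signals were steady, with a median within-group SD of 0.114 on the log2 scale against 0.159 over all probe sets tested. The 8 genes lie on 7 chromosomes, and none lies on chromosome 16 with App or chromosome 9 with Aplp2.

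For each adaptor the 3 genes with the most similar signal over the 16 arrays were listed by Pearson correlation on the log2 scale. The list was Spon1, Cic and Tmem18 for Apba1 (0.89 to 0.87), and Drg2, Cd320 and Oxld1 for Apba2 (0.81). For Apba3 it was Dazap2, Thsd4 and Rps4l (0.86 to 0.83), for Apbb1 Mrm2, Crtac1 and Krt77 (0.90 to 0.84), and for Apbb2 Lrrc40, A930033H14Rik and Farsa (0.84 to 0.76). For Apbb3 it was Atg9a, Farp1 and Tchp (0.85 to 0.84), for Mapk8ip1 Hmcn1, Lhfpl3 and Lamc1 (0.85 to 0.79), and for Dab1 Per1, Rab11fip2 and Gad1 (0.80 to 0.79). Over all 11668 genes the highest correlation with any other gene had a median of 0.84 and a 5th to 95th percentile range of 0.77 to 0.91, and the highest value of each adaptor lay within that range.

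Partners of the adaptors were followed in 5 lists, with 1 probe set per gene, in a fit over 11668 genes in which 0.00857% were called in APPKO against WT, 0.129% in APLP2KO and 0.943% in N-dCKO. In APPKO and in APLP2KO limma called 0 partners of any list, and 2 genes in each had an unadjusted p below 0.05, against 5.18% and 7.44% of all genes. In N-dCKO the only one called was Reln, 1 of 12 tested genes of the reelin list, and the other lists had 0 called. The lists were chosen with earlier results of these data known, so these counts are descriptions. Overlap of arrays is given below for single partners and was not counted over the lists. Of all probe sets tested, 6.77% had N-dCKO and WT arrays that did not overlap. The median log2 difference over all genes was 0.00 in APPKO, -0.01 in APLP2KO and 0.00 in N-dCKO.

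Of 14 further proteins that bind the APP tail, 12 were tested and 0 were called (2 at an unadjusted p below 0.05 in N-dCKO), with a median log2 difference from WT of 0.01 in APPKO, -0.03 in APLP2KO and -0.03 in N-dCKO. Numb, an endocytic adaptor, was at -0.16 ± 0.08 in N-dCKO. The Shc adaptors, which link receptors to Ras signalling, had the smallest p-values in that comparison: Shc1 was at -0.46 ± 0.15 (102.5 ± 22.9 against 142.3 ± 8.24; limma adjusted p = 0.184) and Shc2 at 0.53 ± 0.18 (adjusted p = 0.198). Both were dim, and the N-dCKO and WT arrays overlapped in each.

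Mint partners are the Cask and Lin7 scaffold, syntaxin and the calsyntenins, which Mint proteins join to APP. Of 11 genes, 9 were tested and 0 were called. The N-dCKO median was 0.09, and 4 of the 9 had an unadjusted p below 0.05, against 11.97% of all genes. Clstn1, the calsyntenin that docks cargo to kinesin, read 6514, 6064, 6736 and 6857 in WT and 7939, 7264, 7935 and 7220 in N-dCKO. Its N-dCKO arrays were all above the WT arrays, with a log2 difference of 0.21 ± 0.05 and a limma adjusted p of 0.0512. The N-dCKO arrays of Clstn3 were also all above its WT arrays (log2 difference 0.18 ± 0.065, limma adjusted p = 0.227). Lin7a had a log2 difference of 0.22 ± 0.06 (adjusted p = 0.110), whereas Cask was at -0.05 ± 0.08 and Lin7b at -0.12 ± 0.08.

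All 8 Fe65 partners were tested and 0 were called (2 at an unadjusted p below 0.05 in N-dCKO). The N-dCKO median was 0.09, against 0.03 in both single knockouts. Tfcp2, a transcription factor bound by Fe65, had means of 407.5 ± 22.1 in WT and 498.0 ± 35.1 in N-dCKO, and its arrays did not overlap. That log2 difference was 0.28 ± 0.09 with a limma adjusted p of 0.165. Kat5, the acetyltransferase Tip60, was at 0.09 ± 0.07, and Tshz3, which joins Fe65 in gene repression, at 0.37 ± 0.18 (adjusted p = 0.414).

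Of 17 genes of JIP1, kinesin and the JNK cascade, 14 were tested and 0 were called (2 at an unadjusted p below 0.05 in N-dCKO), with an N-dCKO median of 0.06. Mapk8, the kinase JNK1, had a mean of 1640 ± 128.5 in WT and 1916 ± 93.1 in N-dCKO, a log2 difference of 0.23 ± 0.08 (limma adjusted p = 0.186) with no overlap. Mapk8ip3, the related scaffold JIP3, was at 0.16 ± 0.07 (adjusted p = 0.332). The kinesin heavy chains Kif5a, Kif5b and Kif5c were at -0.05, -0.04 and -0.01, with standard errors of 0.05 to 0.07.

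Reln, which encodes the secreted ligand upstream of Dab1, was higher in N-dCKO. It read 3346, 2731, 3444 and 3706 in WT, 4006, 3032, 3931 and 3506 in APPKO, 4079, 3558, 3484 and 3741 in APLP2KO, and 4600, 4390, 4578 and 4222 in N-dCKO. All 4 N-dCKO arrays lay above all 12 others. Reln was 1.35-fold higher in N-dCKO than in WT on the log2(signal + 9) scale, a log2 difference of 0.43 ± 0.09 with a limma adjusted p of 0.0206 and an exact permutation p of 0.0286. It was 0.13 ± 0.09 in APPKO (adjusted p = 0.9997) and 0.17 ± 0.09 in APLP2KO (adjusted p = 0.715). N-dCKO did not pass the threshold against either single knockout (adjusted p = 0.252 and 0.402), and the interaction was 0.13 ± 0.13, with an unadjusted p of 0.311. Against WT, the log2 difference was 0.35 without WT array 2 (adjusted p = 0.0889), 0.42 without N-dCKO array 1 (adjusted p = 0.0748) and 0.44 without N-dCKO array 2 (adjusted p = 0.0502), so the call rested on each of these 3 arrays. Without N-dCKO array 3 it was 0.42, with an adjusted p of 0.0489.

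The call on Reln was also lost when arrays were centred on their medians (log2 difference 0.35, adjusted p = 0.0750), when the variance trend was left out (log2 difference still 0.43, adjusted p = 0.0627), and when the choroid plexus mean (0.34 ± 0.16, adjusted p = 0.697) or the Gapdh ratio (0.37 ± 0.12, adjusted p = 0.307) was added as a covariate. For both covariates the N-dCKO and WT arrays did not overlap, and each raised the SE from 0.09. These fits therefore cannot separate the covariate from the genotype. In the adult hippocampus reelin is made mainly by interneurons and by remaining Cajal-Retzius cells. The mean log2 signal of 6 interneuron markers was 11.50 to 11.61 in WT, 11.44 to 11.59 in APPKO, 11.45 to 11.59 in APLP2KO and 11.65 to 11.74 in N-dCKO. In N-dCKO limma called 0 of these 6 markers (smallest adjusted p = 0.319). The markers with an unadjusted p below 0.05 were Gad1 and Pvalb, 2 of 6, against 11.97% of all genes. In N-dCKO 6 of 6 log2 differences were positive, among them Gad1 at 0.13, Pvalb at 0.22, Gad2 at 0.16 and Sst at 0.01. Over all probe sets 52.0% were positive in that comparison, and 28.5% after arrays were centred on their medians. The Cajal-Retzius markers Trp73, Lhx5 and Lhx1 were all below the filter. The part of interneuron content in the Reln value was not tested.

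The remaining genes of the reelin list numbered 11, and none was called in N-dCKO. The reelin receptors were at 0.22 ± 0.11 for Lrp8 (limma adjusted p = 0.463) and 0.05 ± 0.08 for Vldlr. Fyn and Src, the kinases that phosphorylate Dab1, were at -0.05 ± 0.06 and 0.08 ± 0.11. Cul5 and Rnf7, parts of the ligase that degrades phosphorylated Dab1, were at 0.00 ± 0.07 and -0.12 ± 0.06 (adjusted p = 0.413 for Rnf7). The list median was 0.01.

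**Figure D4:**
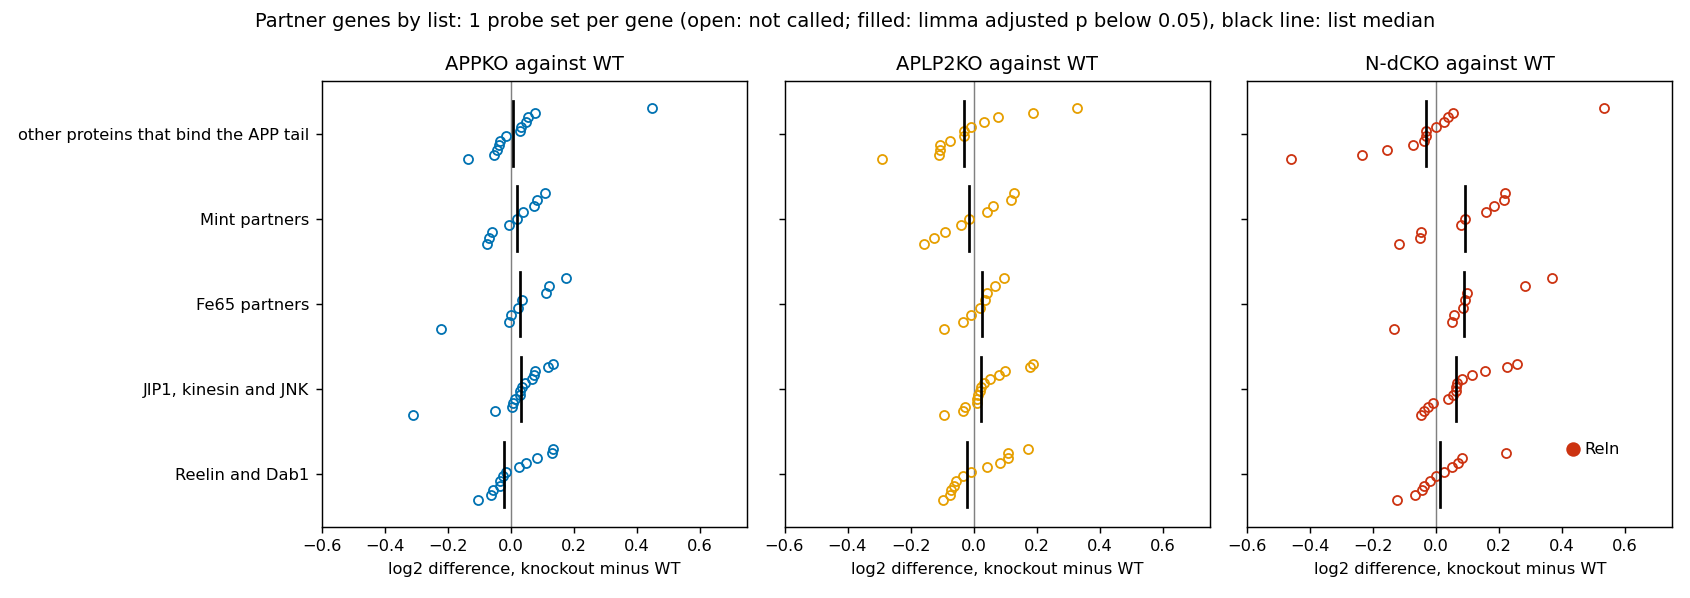
Log2 difference from WT (horizontal axis) for the tested genes of the 5 partner lists, 1 probe set per gene, in 3 panels for the knockout groups; black lines are list medians, filled points are genes called at a limma adjusted p below 0.05 and open points are not called. The only filled point is Reln in N-dCKO, and the list medians lie between -0.03 and 0.09.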

How the data were processed

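Trizol RNA from 16 samples was labelled as cRNA, per the labels' protocols. The deposited values are linear intensity values. The submitters' processing notes name MAS5, with no version. That global scaling was kept, and array number limits the precision. Probe sets were named through the platform annotation (34958 with 1 symbol, 932 with several, 9211 unlisted), and chromosomes came from RefSeq on GRCm38.p6. Signals were taken as log2(signal + 9), a scale that understates changes of dim genes. After 64 control probe sets were left out, probe sets at or above the median mean log2 signal (6.60) were fitted with limma 3.58.1 in R 4.3.3 (package data.table, version 1.17.8): 1 mean per group over 16 arrays, variance trend, and two-sided Benjamini-Hochberg adjusted p-values with a threshold of 0.05. Values after ± are SE for log2 differences and SD for signals. The gene fit used each gene's brightest probe set. The fit was tested on simulated data. Named genes were the adaptors, App, Aplp1 and Aplp2, called partners, otherwise up to 2 per list with the smallest p in N-dCKO against WT, and the 3 genes most like each adaptor; Numb, Cask, Lin7b, Kat5, Kif5a, Kif5b, Kif5c, the remaining reelin genes and the interneuron markers were named for their roles, after values had been seen. The adaptors and lists were chosen with earlier results of these data known. Deviations from group means of same-numbered WT and APPKO arrays correlated in all 4 pairs (0.183 to 0.302), so these groups were also compared with the number as a block; in the other 5 pairs of groups only 2 of 20 same-number correlations passed 0.1, and those numbers were not taken to pair samples. No array was a copy of another. Alternatives were pseudocounts, normalization, filters, 1 or all probe sets per gene, no variance trend, array weights, a replicate block, only the groups compared, covariates and leaving out each array.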

Additional observations from a re-analysis of the deposited data

Results flagged for a closer look

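In 64 groups of 4 arrays (16 adaptor probe sets in 4 genotypes), 4 held a single array far from the other 3 by Dixon's test; chance gives about 1 such group in 20. For Apba1 (1455369_at), APPKO array 2 had a signal of 1616 and the other APPKO arrays 1788 to 1819. The Apbb2 probe set 1426719_at read 1167 on APPKO array 3 and 1045 to 1064 on the others. Apbb3 (1424457_at) read 344.8 on N-dCKO array 4 and 403.7 to 412.1 on the others. The Dab1 probe set 1435577_at read 1127 on WT array 2 and 1224 to 1231 on the others. Of these 4 arrays no 2 were the same, and no adaptor was called in the interaction of both losses.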

How the results depend on the processing

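In all 8 comparisons 0 adaptor probe sets or genes were called under every alternative run (29 to 31 per comparison), and the smallest adjusted p was 0.0866, for APLP2KO against APPKO with the replicate number as a block. With that replicate block, or in APPKO against WT with the block on the 8 arrays of these groups alone (added after seeing the data), 0 adaptors were called in any comparison. Partner genes called in N-dCKO against WT numbered 1 as reported, 2 with quantile normalization (Clstn1 added), 2 with the replicate block, 3 with array weights (Lin7a also), and 0 with median centring, no variance trend, the choroid plexus covariate or the Gapdh covariate. Leaving out single arrays gave 0 to 2. Adaptor probe sets whose arrays did not overlap with WT numbered 2 in APLP2KO with quantile normalization (Apbb1 lower, Apbb2 higher; 0 as reported), where 4.11% of all probe sets did not overlap, and 0 in N-dCKO with median centring (1 as reported), where 7.56% did not. The causes were not tested. Over the whole array, calls ranged from 1 to 21 in APPKO against WT (21 without APPKO array 2), 8 to 44 in APLP2KO, 17 to 263 in N-dCKO (17 with the choroid plexus covariate, 263 with the block), 9 to 85 in N-dCKO against APPKO, 2 to 43 in N-dCKO against APLP2KO (43 without N-dCKO array 3), 13 to 55 in APLP2KO against APPKO, 0 to 11 in the interaction and 32 to 169 in the F test. Of the refits of adaptor log2 differences, 19 of 246 in APPKO, 15 of 238 in APLP2KO and 8 of 238 in N-dCKO changed sign, none of them called. With a 75th percentile filter Apba3 and Apbb3 gave no value.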
